A study of Mus musculus with 6 samples.

Results

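The 8 genes described here encode the transcription factors that set lipid synthesis in liver and the proteins that hold one family of them in check: the liver X receptors Nr1h3 (LXR alpha) and Nr1h2 (LXR beta), the sterol regulatory element binding proteins Srebf1 and Srebf2, their escort Scap, the retention proteins Insig1 and Insig2, and Mlxipl (ChREBP). They were taken by symbol from a list of lipid regulators, 8 of the 49315 genes in the count table, by a rule that uses no measured value, although earlier results of these data were known when they were picked. Nr1h3 was included as a reported target of miR-206, a microRNA best known from muscle. RNA was sequenced in bulk from hepatocytes of male C57BL/6J mice that were 8 weeks old. By the design text, 3 mice received 20 µg of a plasmid named pT3-TTR-miR-206-IRES-GFP, in which the Ttr promoter (active in hepatocytes) drives miR-206 and GFP, with 0.8 µg of a second plasmid that makes the Sleeping Beauty transposase, which inserts the transgene into the genome. After 4 weeks the liver cells were sorted on GFP. The GFP-positive cells gave 3 miR-206 libraries and the GFP-negative cells 3 control libraries. The sample labels instead name an empty vector for the controls, and the counts do not settle which of these is right. If the design text holds, both groups carry the injection and the transposase. The mRNA libraries do not measure mature miR-206, so the groups could not be checked on the transgene.

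As background, LXRs pair with RXR and are switched on by oxidised cholesterol. They raise cholesterol export genes and the lipogenic factor SREBP-1c, a product of Srebf1. SREBPs are made as membrane proteins that Scap carries from the endoplasmic reticulum to the Golgi for cleavage, and the Insig proteins retain Scap when sterols are plentiful. ChREBP, which pairs with Mlx, senses sugar metabolites and shares many lipogenic targets with SREBP-1c.

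Total counts were 8966590 to 15244017 in the control libraries and 4157947 to 5724329 in the miR-206 libraries. Mitochondrially encoded genes took 9.16% to 36.0% of counts in controls and 11.2% to 63.8% in miR-206 libraries. Among the controls, replicate 1 was the least like the rest, with correlations of log2 CPM of 0.854 and 0.856 to replicates 2 and 3, which correlated at 0.965 with each other. CPM here are counts scaled to a common library size with TMM factors, which aim to level most genes between libraries. The factors were 0.629 to 0.849 in controls and 1.125 to 1.94 in miR-206 libraries. After this scaling the median log2 fold change of all tested genes (miR-206 over control) was still 0.45. Olfactory and vomeronasal receptor genes, which hepatocytes are not known to use, had 1.26 to 3.05 counts per exonic kb in controls and 3.70 to 5.45 in miR-206 libraries. These counts serve as a measure of background, and each member's count is also given as a multiple of what its exonic length would collect at that density. The measure is an average that need not hold for each gene. In miR-206 replicates 2 and 3 it gave 12.4 and 18.1 counts for Nr1h2, where 2 and 6 were read, so it was too high for that gene. Multiples of background and corrected values are therefore approximate.

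To show which of these transcripts could pair with the microRNA, the mature miR-206 (mmu-miR-206-3p, RefSeq GRCm38.p6, chr1:20679055-20679076, plus strand) is printed with its seed, bases 2 to 8, in capitals. Below it stand the matches found in annotated 3′ UTRs of the members (GENCODE M21, GRCm38), each in transcript orientation with the bases of the match in capitals.
miR-206-3p: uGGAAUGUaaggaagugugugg
Nr1h3 site: gcagactgagaagggcagACATTCCtggga
Insig1 site: cacctgtcttctttggaACATTCCAtccca
Srebf2 site: tttgttgttgttacgtttCATTCCAgtttt

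Coordinates here are those of each printed stretch, and the 3′ UTR base is where its match begins. The Nr1h3 match lies within chr2:91184240-91184269 on the minus strand, at base 85 of a 275-base 3′ UTR, and pairs with the whole seed (a 7mer-m8 match). Insig1 holds an 8mer, the seed match followed by A, within chr5:28077020-28077049 on the plus strand, at base 217 of 1842. The Srebf2 match, within chr15:82204280-82204309 on the plus strand and at base 381 of 1462, is a 7mer-A1, which lacks the pair at seed base 8. None of the 3 match kinds was found in the annotated 3′ UTRs of Nr1h2, Srebf1, Scap, Insig2 or Mlxipl. Thus 3 of 8 members had a match, among them Nr1h3, which was listed as a reported miR-206 target, so this count is no measure of excess. Of 16796 tested protein-coding genes, 18.4% had a match. Across those genes, the 3088 with a match had a median log2 fold change of -0.35 (miR-206 over control, counts as deposited) and the 13708 without had -0.60, while 36.4% and 42.1% fell. Their 3′ UTRs differed in length, with medians of 2408 and 909 bases. A match in letters is a description and was not tested as a site.

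In the counts as deposited, all 8 regulators fell in miR-206 libraries, by 1.95 (Scap) to 4.23 (Nr1h2) on the log2 scale. The edgeR quasi-likelihood test was used, with Benjamini-Hochberg adjusted p under 0.05 over 24382 genes. In this comparison 29.6% of all tested genes fell and 25.8% rose. The members' median log2 fold change was -2.74, against 0.45 over all tested genes. The 5618 protein-coding genes with levels in the members' range (12.8 to 94.9 mean CPM) had a median of -1.79, and 69.9% of them fell. For 7 of 8 members the highest CPM among the miR-206 libraries lay below the lowest control, as it did for 30.3% of all tested genes. Once the background was subtracted and the 6458 protein-coding genes averaging at least 10 times background were fitted again, Insig2 was called lower, Nr1h2 was called lower on counts at or under background, 0 members rose and 6 did not pass. There 20.3% of genes fell and 18.5% rose. All 8 members reached that average through the controls, since none averaged 10 times background in the miR-206 libraries, so these calls are a description and support nothing. This background-corrected fit was chosen after the data had been seen. In bulk samples, fewer cells of a type and less RNA per cell cannot be told apart.

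**Figure D1:**
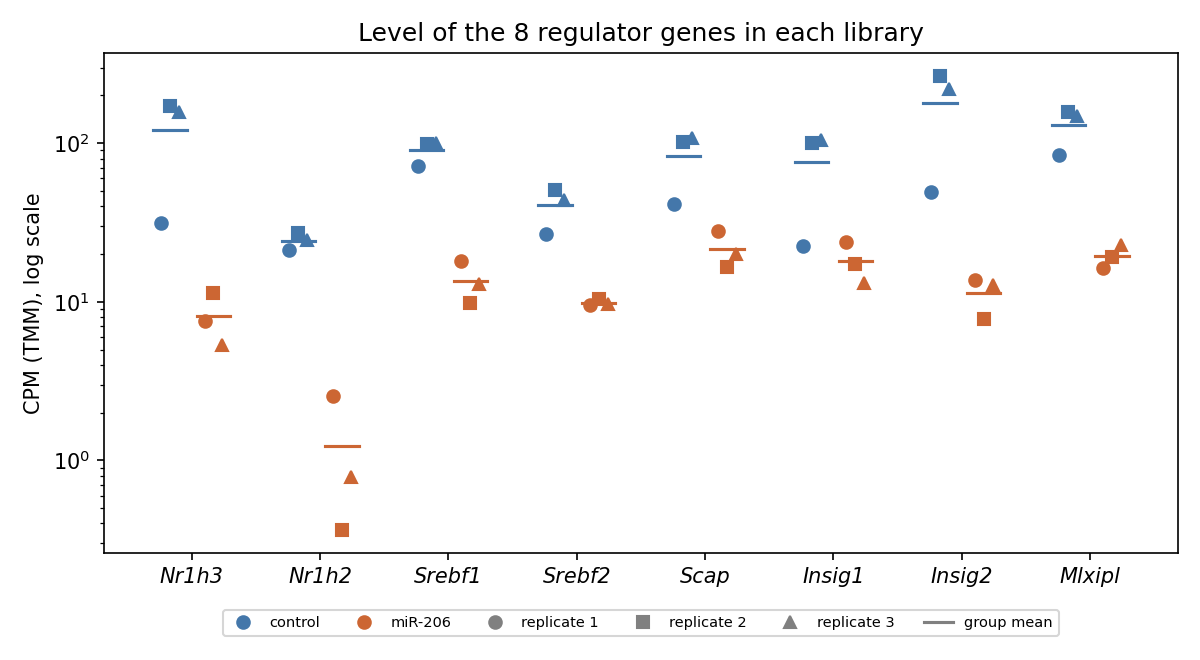
CPM (TMM) of each regulator gene in each of the 6 libraries, on a log axis, with a horizontal bar at each group mean and the replicate given by the marker shape. The groups overlap for Insig1 alone, where control replicate 1 (22.3) lies below miR-206 replicate 1 (23.7).

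Of the LXRs, Nr1h3, the form most abundant in liver and macrophages, was counted at 31.3, 172 and 158 CPM in the 3 controls and 7.59, 11.3 and 5.37 CPM in the 3 miR-206 libraries. Every miR-206 library lay below every control, and control replicate 1 lay at 0.19 times the mean of the other controls. The group means, 120 ± 77.4 and 8.08 ± 2.98 CPM (SD, n = 3 each), differed 14.9-fold. The log2 fold change was -3.90 (SE 0.66, adjusted p = 0.00105). After background correction it was -1.35 (SE 0.48, adjusted p = 0.0536) and did not pass. That corrected value passed with control replicate 1 left out (-1.68, adjusted p = 0.0151) and with miR-206 replicate 2 left out (-1.81, adjusted p = 0.031), and in 3 of 4 other scalings. In the miR-206 libraries 41 to 62 counts of Nr1h3 were read, 3.03 to 6.67 times background.

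Nr1h3 is also a gene of macrophages, and markers of those cells moved with it. Summed CPM of 14 Kupffer cell and macrophage markers was 714 to 2251 in controls and 90.5 to 100 in miR-206 libraries. All 14 fell as deposited, where 29.6% of all tested genes fell, and 10 of 14 after background correction, where 20.3% did. Leaving out a library gave 12 to 14 falls as deposited and 8 to 10 after correction. No marker was at 0 in any library: Clec4f, a lectin of Kupffer cells, had 597, 3747 and 3497 counts in controls and 52, 34 and 46 in miR-206 libraries. The complement gene C1qb and the lysozyme gene Lyz2 had log2 fold changes of -5.76 and -3.79 as deposited. The part of these cells in the Nr1h3 difference was not tested.

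Nr1h2, the LXR found in most tissues, was even across the controls and almost absent from the miR-206 libraries. It stood at 21.3, 27.2 and 24.5 CPM in controls and at 2.53, 0.364 and 0.786 CPM in miR-206 libraries. The latter are 20, 2 and 6 counts (95% exact Poisson interval 0.242 to 7.22 for the 2), which is 1.09, 0.161 and 0.332 times background. Its log2 fold change was -4.23 (SE 0.54, adjusted p = 0.000332). Since its miR-206 counts were near or under the background, its corrected fold and call carry no weight and no fold is given. The table also lists a pseudogene of Nr1h2, so its counts are uncertain where the counting could have split reads.

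Both SREBP genes fell as deposited, Srebf1 by more than Srebf2. Srebf1, whose products SREBP-1a and SREBP-1c drive fatty acid synthesis, was at 72.0, 99.2 and 101 CPM in controls and 17.96, 9.82 and 12.96 in miR-206 libraries. The groups were well apart, with a log2 fold change of -2.73 (SE 0.40, adjusted p = 0.000502). After background correction the value was -0.55 (SE 0.33, adjusted p = 0.215). Gene counts do not separate SREBP-1a from SREBP-1c.

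Srebf2, the regulator of cholesterol synthesis and uptake, was at 26.8, 50.8 and 43.8 CPM in controls. In the miR-206 libraries it stood at 9.49, 10.4 and 9.69 CPM, within a narrow range below every control. Those values were 1.91 to 2.15 times background. The log2 fold change of -2.04 (SE 0.34, adjusted p = 0.000987) became -0.26 (SE 0.29, adjusted p = 0.49) after correction, and 0.57 (adjusted p = 0.28) where libraries were scaled on hepatocyte markers.

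Scap was at 41.6, 102 and 108 CPM in controls and 28.1, 16.6 and 20.0 in miR-206 libraries. The lowest control stood above the highest miR-206 library by a small margin. Its fold change was -1.95 on the log2 scale (SE 0.45, adjusted p = 0.00532) as deposited, and 0.47 (SE 0.28, adjusted p = 0.21) after background correction. With library size as the sole scaling, Scap did not pass (-0.75, adjusted p = 0.164). Of its 7443 exonic bases, 985 are shared with 5830462I19Rik on the other strand. Whether counting used strand is unknown, and reads there could belong to either gene.

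The Insig genes, whose proteins share the task of retaining Scap, gave different values. Insig2 was at 49.2, 266 and 220 CPM in controls and 13.8, 7.82 and 12.7 in miR-206 libraries, with no overlap and group means 15.6-fold apart. Its log2 fold change was -3.96 (SE 0.65, adjusted p = 0.000925), and it was called lower in 4 of 4 other scalings. After background correction its value was -1.40 (SE 0.41, adjusted p = 0.0278). That call held in 1 of 6 fits with a library left out, the one without control replicate 1. It was lost without control replicate 2 (adjusted p = 0.0795), control replicate 3 (0.0681), or miR-206 replicate 1 (0.0538), 2 (0.0717) or 3 (0.0718), where the values ran from -1.56 to -1.13.

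Insig1, itself a target of SREBPs, was at 22.3, 100 and 104 CPM in controls and 23.7, 17.3 and 13.1 in miR-206 libraries. Control replicate 1 fell within the range of the miR-206 libraries, so that the groups overlapped. The log2 fold change was -2.07 (SE 0.56, adjusted p = 0.011) as deposited. It did not pass with upper-quartile factors (-1.11, adjusted p = 0.0539) or library size alone (-0.84, adjusted p = 0.154), and stood at 0.64 (SE 0.38, adjusted p = 0.204) after background correction. Its miR-206 counts, 95 to 187, were the farthest above background among the members, at 6.00 to 11.1 times.

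Mlxipl was at 84.7, 157 and 149 CPM in controls and 16.4, 19.3 and 22.7 in miR-206 libraries. All miR-206 libraries lay far below the controls, with a log2 fold change of -2.74 (SE 0.42, adjusted p = 0.00065). After background correction it was -0.31 (SE 0.25, adjusted p = 0.338), and with hepatocyte scaling -0.14 (adjusted p = 0.768).

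**Figure D2:**
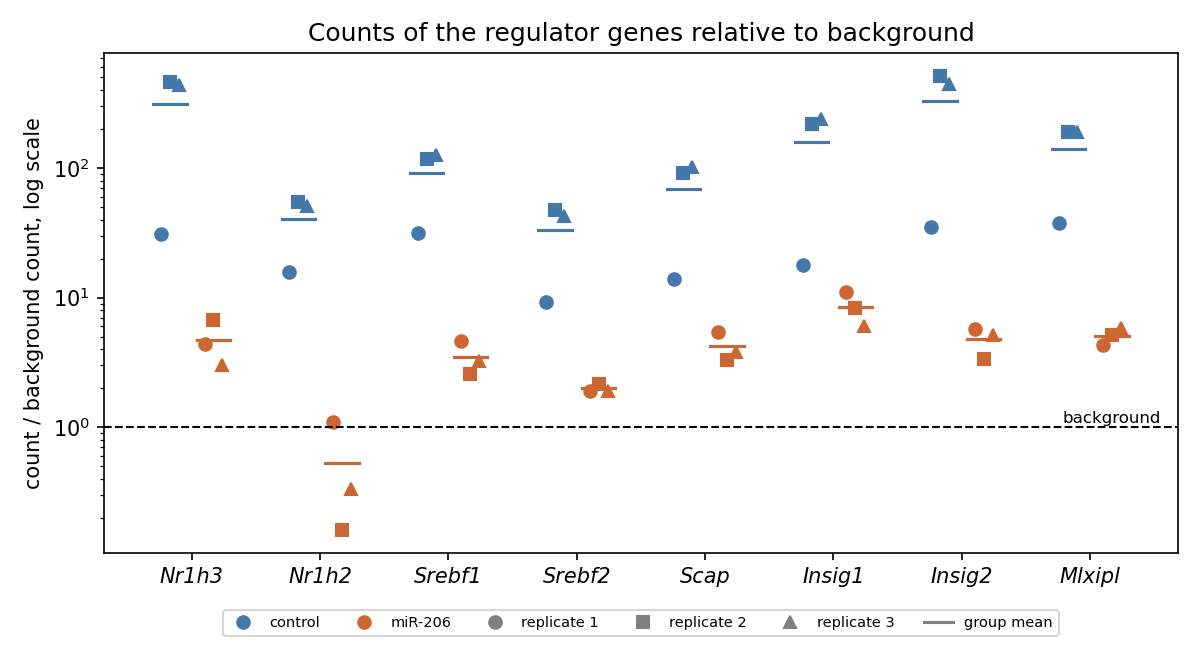
Counts of each regulator gene divided by the count expected from the receptor background over its exonic length, per library, on a log axis, with group means as bars and the background as a dashed line. Controls run from 9.27 (Srebf2) to 515 (Insig2) times background, and miR-206 libraries from 0.161 (Nr1h2) to 11.1 (Insig1).

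Scaling between the groups sets the size of these fold changes and, for some members, their sign. With hepatocyte scaling, which sets 19 hepatocyte marker genes level between libraries, Srebf2 (0.57), Scap (0.71) and Insig1 (0.78) had positive log2 fold changes that did not pass, and Nr1h2 (-1.95, adjusted p = 0.0492) and Insig2 (-1.13, adjusted p = 0.0229) fell. Over all tested genes 2.26% fell and 61.8% rose with this scaling. Upper-quartile factors called 7 members lower, with 19.7% of all tested genes, and library size alone 6, with 15.5%. After background correction, library size alone called 4 members lower, where 26.6% of genes fell and 7.01% rose. Hepatocyte scaling moved the median of all tested genes from 0.45 to 2.70, and the share of calls that rose from 46.6% to 96.5%. Upper-quartile factors gave 68.8% and library size alone 75.5%. Summed CPM of the hepatocyte markers was 74400 to 182900 in controls and 20250 to 53590 in miR-206 libraries. Albumin (Alb) was present in all 6, at 29300, 75700 and 75700 CPM in controls and 18500, 6240 and 11600 CPM in miR-206 libraries. On the log2 scale Apoa1 was at -2.09 (adjusted p = 0.0242) as deposited and 0.62 (adjusted p = 0.272) corrected, and Serpina1c at -1.64 (adjusted p = 0.0507) and 1.14 (adjusted p = 0.0449). Of the 19 hepatocyte markers 13 fell and 0 rose as deposited, where 29.6% of all tested genes fell. After correction 5 fell and 6 rose (median 0.62), where 20.3% of fitted genes fell and 18.5% rose. The marker counts were unstable. With a library left out, 7 to 18 fell as deposited, and after correction 2 to 5 fell and 1 to 10 rose.

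**Figure D3:**
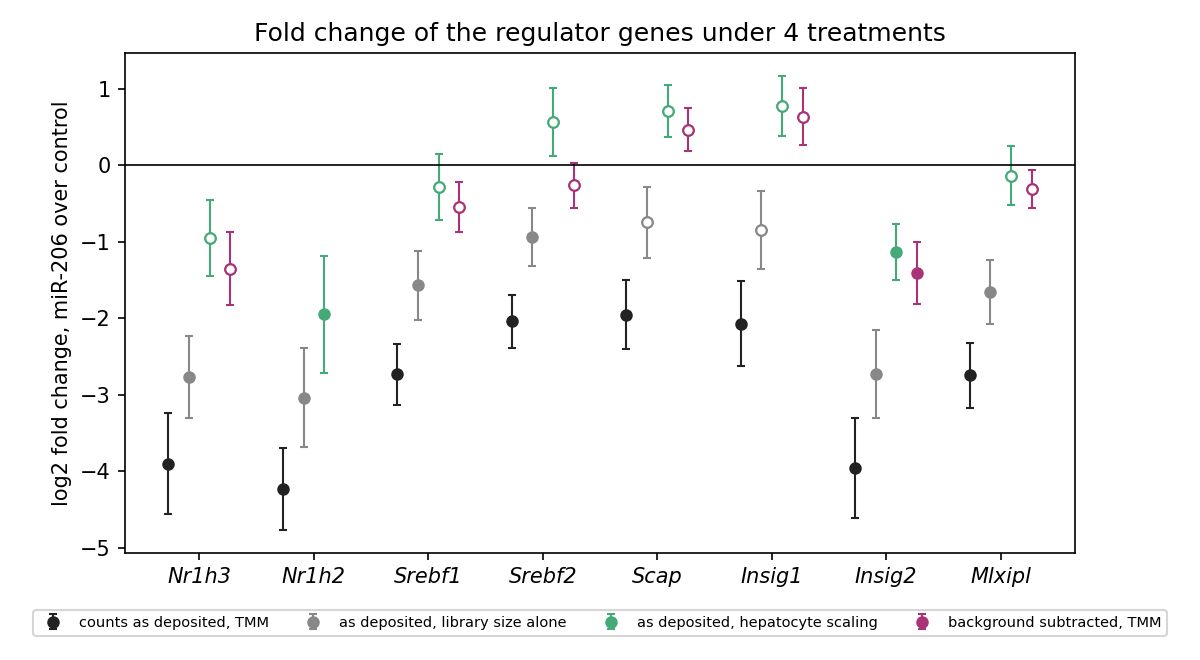
Log2 fold change (miR-206 over control) of each regulator gene, with its standard error, under 4 treatments of the counts; filled points passed the edgeR test at an adjusted p under 0.05. Insig2 is below 0 and filled in all 4, whereas Scap and Insig1 lie above 0 with hepatocyte scaling and after background subtraction, where Nr1h2 is not drawn because its miR-206 counts are near or under background.

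Ratios of members within a library do not depend on scaling between libraries, and 5 were compared by exact two-sided permutation tests, for which 0.1 is the smallest p that 3 against 3 allows. The Insig1 to Insig2 count ratio was 0.455, 0.377 and 0.475 in controls and 1.71, 2.20 and 1.03 in miR-206 libraries. Insig2 counts exceeded Insig1 counts in every control (replicate 1 included). The reverse held in miR-206 replicates 1 and 2, while replicate 3 had near-equal counts (Insig1 100, Insig2 97), within counting error. The mean log2 ratio went from -1.21 ± 0.18 to 0.65 ± 0.56 (SD, n = 3 each), a difference of 1.86 or 3.62-fold (exact permutation p = 0.1, 0.167 adjusted over the 5 ratios). Leaving out any one library gave differences of 1.62 to 2.16, and after background subtraction it was 2.04.

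The Scap to Insig2 ratio moved likewise, from a mean log2 of -0.89 ± 0.59 to 0.92 ± 0.23 with no overlap (difference 1.80, exact permutation p = 0.1, adjusted 0.167), and 1.78 after background subtraction. Both of these ratios share the Insig2 counts, so they are not separate evidence. The Srebf1 to Srebf2 ratio was lower in each miR-206 library (1.89, 0.948 and 1.34) than in each control (2.68, 1.95 and 2.30), a log2 difference of -0.78 (exact permutation p = 0.1, adjusted 0.167). After background subtraction that difference was -0.35 and the groups overlapped (exact permutation p = 0.6). The Srebf1 to Mlxipl ratio differed by -0.06 (exact permutation p = 0.9) and the Nr1h3 to Nr1h2 ratio by 0.99 (exact permutation p = 0.5), both with overlap. Leaving out any one library moved the Nr1h3 to Nr1h2 difference between 0.15 and 1.69. After background subtraction it was 3.64 with no overlap (exact permutation p = 0.1), a value that rests on Nr1h2 counts at or under background. No ratio could pass at this number of libraries.

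**Figure D4:**
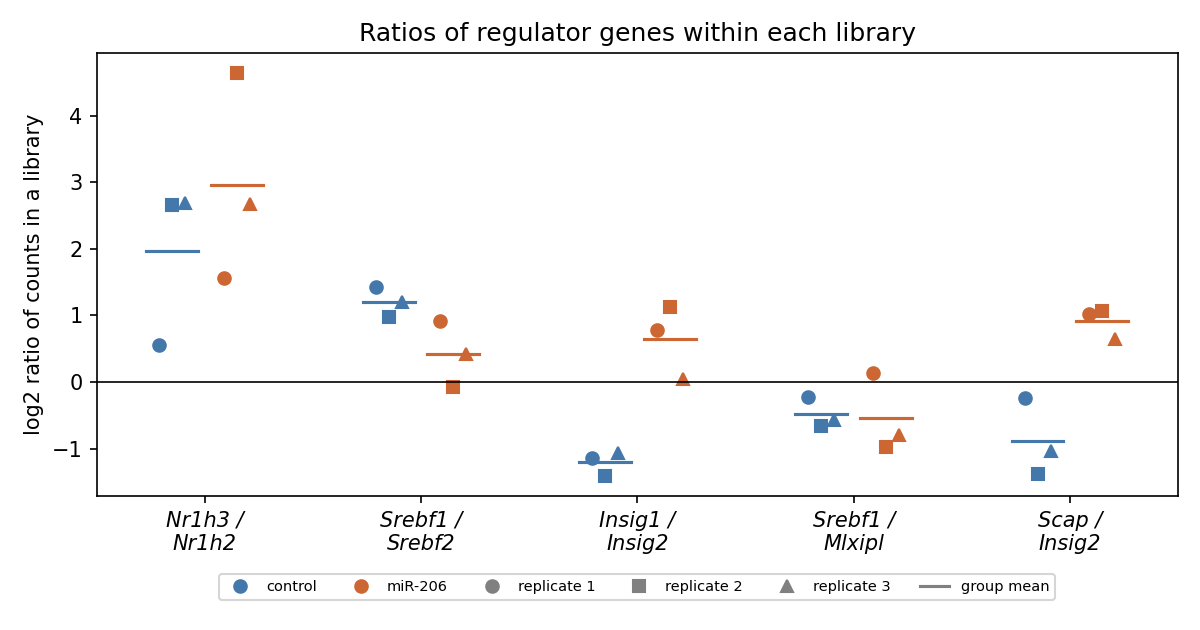
Log2 ratio of the counts of 2 regulator genes in the same library, for 5 ratios, with the replicate given by marker shape and group means as bars. The Insig1 to Insig2 and Scap to Insig2 ratios lie below 0 in all 3 controls and above 0 in all 3 miR-206 libraries. In miR-206 replicate 3 the Insig1 to Insig2 value is 0.04, near equality.

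Levels of different genes were compared as CPM per exonic kb, over all annotated exons of a gene. In controls Insig2 (51.4 ± 32.9) and Nr1h3 (47.8 ± 30.8) led, followed by Insig1 (24.5 ± 14.95), Mlxipl (23.6 ± 7.18), Srebf1 (16.1 ± 2.87), Scap (11.2 ± 4.90), Nr1h2 (7.25 ± 0.883) and Srebf2 (5.63 ± 1.71; SD, n = 3). That order did not hold in control replicate 1, where Mlxipl was highest (15.3 CPM per kb), above Insig2 (14.15), Srebf1 (12.8) and Nr1h3 (12.45). Neighbours in the order of means differed by less than the larger of their SDs, except Mlxipl and Srebf1. The order in miR-206 libraries was Insig1 (5.82 ± 1.72), Mlxipl (3.51 ± 0.561), Insig2 (3.29 ± 0.915), Nr1h3 (3.21 ± 1.19), Scap (2.90 ± 0.795), Srebf1 (2.41 ± 0.729), Srebf2 (1.37 ± 0.0639) and Nr1h2 (0.366 ± 0.342). There Insig1 stood above its neighbour, and Srebf2 and Nr1h2 below theirs, by more than the larger SD, while the members from Mlxipl to Srebf1 differed from their neighbours by less. The receptor background in the miR-206 libraries was 0.673 to 0.705 CPM per kb, above the Nr1h2 mean.

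Members also differed in how far control replicate 1 departed from the other controls. Its CPM was 0.19 times the mean of controls 2 and 3 for Nr1h3, 0.202 for Insig2 and 0.218 for Insig1, but 0.72 for Srebf1 and 0.824 for Nr1h2. Scap, Mlxipl and Srebf2 lay between, at 0.398, 0.553 and 0.567. All 8 members nevertheless passed as deposited with any single library left out, where 22.3% to 34.7% of all tested genes fell.

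The partners and targets of these regulators were followed in 7 lists, whose counts stand beside 29.6% falls and 25.8% rises over all tested genes as deposited, 69.9% falls among protein-coding genes in the members' level range, and 20.3% falls and 18.5% rises after correction. A gene can enter the corrected fit through its controls alone, so counts there describe the genes fitted and not the whole list. Of 15 LXR partners and coregulators, 9 fell and 0 rose as deposited (median log2 fold change -0.90), and of 8 fitted after background correction 0 fell and 4 rose: Ncoa3 (1.86), Med1 (1.67), Ppargc1a (1.18) and Crebbp (0.92), all coactivators, named after their values were seen. As deposited, Ppargc1a (-0.90) and Crebbp (-1.30) had been called lower, while Ncoa3 and Med1 did not pass. With hepatocyte scaling of the deposited counts the median of the list was 1.5 and 10 rose. The deposited falls were 3 with upper-quartile factors (median -0.04) and 2 with library size alone (median 0.20), and the corrected rises were 1 with library size alone. Rxra, an RXR partner, was at -3.34 (SE 0.61, adjusted p = 0.00152) as deposited and -0.88 (adjusted p = 0.126) corrected. Rxrb was at -3.53 (SE 0.53, adjusted p = 0.000602) and Med15, a Mediator subunit, at -1.82 (SE 0.30, adjusted p = 0.000956), both near background in miR-206 libraries. The deposited count of falls became 14 without control replicate 1 and was 6 without control replicate 2 or 3 or miR-206 replicate 2, and the corrected count of rises was 2 without control replicate 2 or 3. Leaving out miR-206 replicate 2 gave 2 corrected falls, and leaving out control replicate 1 gave 1.

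Of 14 LXR target genes, 9 fell and 0 rose as deposited (median -1.73), and of 10 fitted after correction 0 fell and 4 rose. With hepatocyte scaling of the deposited counts the median was 0.98. The deposited falls were 6 with upper-quartile factors and 4 with library size alone. The 4, named after their values were seen, were Pltp (2.84), Apoe (1.96), Cyp7a1 (1.65) and Abca1 (0.86), genes of lipoprotein remodelling, lipid transport, bile acid synthesis and cholesterol efflux. As deposited, Abca1 had been called lower (-1.58), while Pltp, Apoe and Cyp7a1 did not pass. The corrected rises numbered 2 without control replicate 2 or 3, and 2 with library size alone, which also called 1 fall, as did the fit without miR-206 replicate 2. The 3 targets with the smallest p as deposited were Lpcat3, a phospholipid acyltransferase (-2.46, SE 0.37, adjusted p = 0.000592), the sterol exporter Abcg8 (-3.38, SE 0.62, adjusted p = 0.00154) and Mylip, a ubiquitin ligase (-2.31, SE 0.44, adjusted p = 0.00199). Their corrected values did not pass, at -0.03 for Lpcat3, -2.65 for Abcg8 and -0.54 for Mylip. In the miR-206 libraries Abcg8 was at 0.392 to 1.51 times background and Mylip at 1.34 to 2.16, so their folds are limited by it.

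Among 18 genes of SREBP transport, cleavage and turnover, 13 fell and 1 rose (Paqr3, 0.99) as deposited, with a median of -2.05. Paqr3 was at 2.14 to 2.5 times background in miR-206 libraries and 2.38 to 5.07 times in controls. It was not kept in the corrected fit. After correction 0 of 14 fell and 1 rose (Erlin1, 1.56, which passed no longer without control replicate 2 or 3 or miR-206 replicate 1 or 3), and the median was 0.55 with hepatocyte scaling of the deposited counts. The COPII coat genes Sec24c (-2.46, adjusted p = 0.000482) and Sar1a (-2.59, adjusted p = 0.000874) and the ATPase Vcp (-2.59, adjusted p = 0.000967) fell as deposited. Their corrected values were -0.35, -0.15 and -0.01.

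Of 10 genes listed as partners of SREBP and ChREBP at DNA, 7 fell and 1 rose (Nfya, 1.01) as deposited (median -2.59). The list includes Max and Tcf25, whose pairing with SREBP or ChREBP is not established here. Nfya was at 1.89 to 2.08 times background in miR-206 libraries and 1.93 to 5.54 times in controls. The 6 listed genes fitted after correction do not include Nfya, and 4 of them fell and 0 rose. The median was 0.03 with hepatocyte scaling of the deposited counts. Mlx, the obligate partner of ChREBP, stood at -3.61 (SE 0.44, adjusted p = 0.00032) and -1.90 corrected (adjusted p = 0.0127). Usf1, an E-box factor, was at -3.06 (SE 0.41, adjusted p = 0.00038) and -1.58 corrected (adjusted p = 0.0332). Max, at -3.43 (SE 0.43, adjusted p = 0.000333), was under background in all miR-206 libraries. Mlx and Usf1 themselves were at 1.51 to 1.93 times background there. The 4 corrected falls, which include Max and Tcf25, were 1 without control replicate 2 or 3.

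Of 20 lipogenic targets of SREBP-1c, 19 fell and 1 rose as deposited (median -2.84), and 12 fell with library size alone. Background correction left 3 falls and 2 rises among 20 (median -0.50; hepatocyte scaling of the deposited counts, -0.19). Fasn, the fatty acid synthase, fell in both fits (-3.56, SE 0.41, adjusted p = 0.000286, and corrected -1.88, adjusted p = 0.0054). In the miR-206 libraries Fasn was at 1.8 to 2.3 times background, so its corrected value rests on a small remainder above background. The acetyl-CoA supplier Acly (-3.09, adjusted p = 0.000406) passed as deposited and not after correction (-0.73). The remaining corrected calls, named after their values were seen, were falls of Lpin1 (-1.85) and Fads1 (-1.09) and rises of Pnpla3 (3.86) and Acaca (1.14). Pnpla3, a lipid droplet protein, was the 1 gene that rose as deposited (1.26, adjusted p = 0.00927). Acaca, the acetyl-CoA carboxylase that feeds Fasn, had fallen as deposited (-1.04, adjusted p = 0.0308). The corrected falls numbered 1 without control replicate 2 or 3 or miR-206 replicate 3, and the rises 1 without those libraries and 3 without miR-206 replicate 2.

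Of 25 sterol targets of SREBP-2, 19 fell and 0 rose as deposited (median -1.65). After correction 2 fell, 11 rose and 12 did not pass (median 0.59). Hepatocyte scaling of the deposited counts gave a median of 0.74, with 7 rises and 1 fall, and the deposited falls were 12 with upper-quartile factors and 8 with library size alone. The 11 included, named after their values were seen, Msmo1 (2.52), Hmgcs1 (1.93), Dhcr7 (1.78), Sqle (1.32), Idi1 (1.26), Cyp51 (1.18) and Acat2 (0.83) of sterol synthesis, and Npc1 (1.06) and Tmem97 (0.87) of intracellular cholesterol handling. The rises numbered 11 when control replicate 1 was left out and 8 when miR-206 replicate 2 was, but 3 without control replicate 2 or 3 or miR-206 replicate 1 or 3, and 3 with library size alone. The 2 corrected falls included the cyclase gene Lss, which was near background in miR-206 libraries (as deposited -2.39, SE 0.32, adjusted p = 0.000371). The other synthesis genes with the smallest p as deposited, Nsdhl (-2.78, adjusted p = 0.000316) and Pmvk (-2.96, adjusted p = 0.000334), did not pass after correction (-0.78 and -0.66).

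Of 13 tested ChREBP targets, 12 fell and 0 rose as deposited (median -2.32), and of 12 fitted after correction 3 fell and 1 rose. Hepatocyte scaling of the deposited counts gave a median of 0.04. Txnip, a glucose-induced gene, stood at -4.65 (SE 0.46, adjusted p = 0.000271) and -2.47 corrected (adjusted p = 0.00477). Tkfc, of fructose metabolism, was at -4.30 (SE 0.59, adjusted p = 0.000411) and -2.005 corrected (adjusted p = 0.00615), and Rgs16 at -3.07 (SE 0.44, adjusted p = 0.000481) and -0.92 corrected (adjusted p = 0.199). The corrected rise was Mttp (1.71), which loads lipid onto lipoproteins. The rises were 3 without miR-206 replicate 2.

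**Figure D5:**
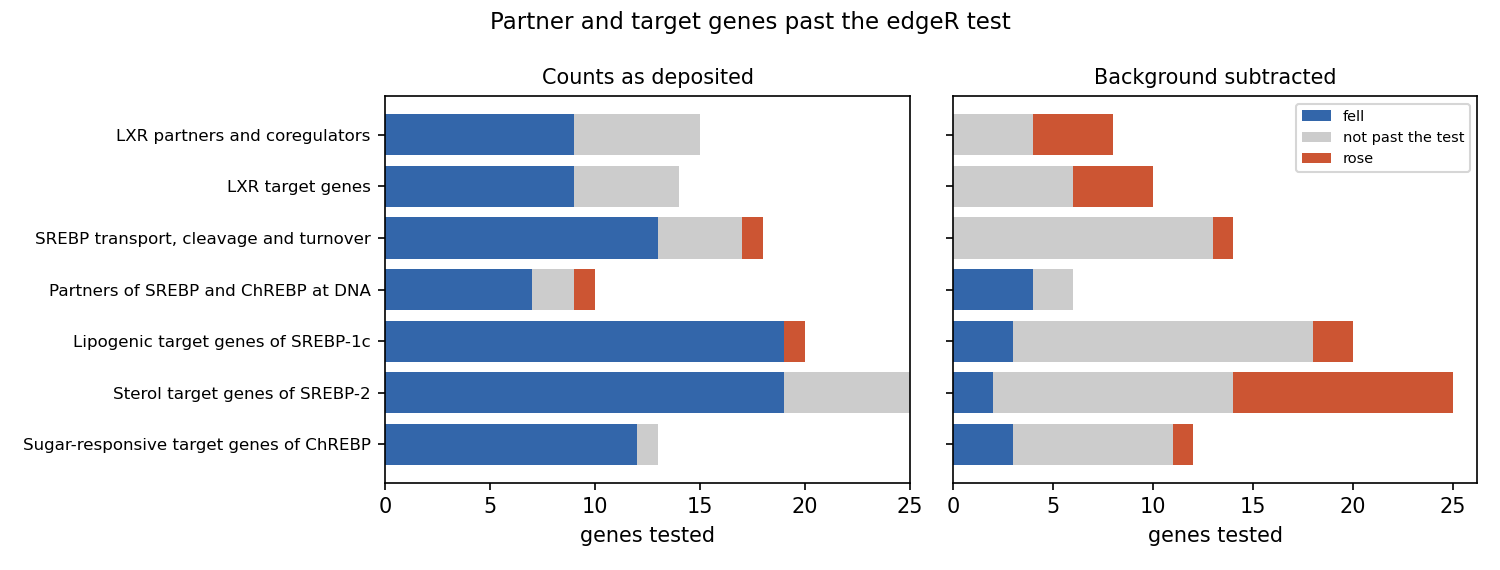
Number of tested genes of each partner or target list that fell, rose or did not pass the edgeR test, in the counts as deposited (left) and after background subtraction (right). Falls are the most numerous class in every list on the left, and on the right the sterol targets of SREBP-2 have 11 rises and 2 falls.

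Markers of other cell types also had lower sums in the miR-206 libraries. The counts of calls below stand beside falls of 29.6% of all tested genes as deposited. Among protein-coding genes in the members' level range 69.9% fell. After correction 20.3% of fitted genes fell and 18.5% rose. Summed CPM of 10 sinusoidal endothelial markers was 459 to 574 in controls and 116 to 126 in miR-206 libraries, with Clec4g at -4.91, Dnase1l3 at -2.95 and Kdr at -1.14 as deposited. All 10 fell as deposited, and 7 to 10 did when a library was left out. After correction 4 fell, among them Clec4g (-3.30) and Dnase1l3 (-0.95). In the miR-206 libraries Clec4g was at 0.879 to 2.49 times background, so its corrected value carries little weight, and Dnase1l3 at 2.31 to 2.74. Another 3 rose, namely Kdr (1.14), Stab2 (1.38) and Pecam1 (1.16), the last pair named after their values were seen. The corrected fits with a library left out gave 1 to 3 falls and 1 to 3 rises of endothelial markers. For 10 stellate cell markers, it was 255 to 693 and 119 to 138, with Dcn at -3.59 and Col3a1 at -2.60 (log2 fold change as deposited), while Reln (-0.29, adjusted p = 0.47) did not pass. Of these 10, 4 fell and 6 did not pass as deposited, and of 4 fitted after correction 2 fell and 1 rose (Rgs5, 1.85, named after its value was seen). The stellate falls were 3 to 7 as deposited and 0 to 3 after correction when a library was left out. For 8 cholangiocyte markers, with Spp1 at -4.94, Krt19 at -4.46 and Tspan8 at -1.60, it was 880 to 3115 and 55.3 to 117, highest in control replicate 1. As deposited 6 of these 8 fell, and of 5 fitted after correction 2 did. When a library was left out, 6 to 7 fell as deposited, and 0 to 2 fell and 0 to 2 rose after correction. Sums of the 5 marker lists did not overlap between the groups in TMM CPM (exact permutation p = 0.1 each, the smallest possible). In CPM by library size alone, hepatocyte sums overlapped (control replicate 1 at 62800, miR-206 replicate 1 at 101900), as did stellate sums (215 and 227; exact permutation p = 0.2 for both). No marker was at 0 in any library. The miR-206 sums of the 4 lists other than hepatocytes were 2.34 to 5.75 times background. Their part in the members' values was not tested.

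Genes whose log2 CPM ran most like 3 of the members over the 6 libraries were also found, as a description. For Nr1h3 these were Gbe1 (Pearson r 0.9995), Pla2g7 (0.9993) and Cab39 (0.9992). For Srebf1 they included Rabac1 (0.9996) and Ier2 (0.999), and for Srebf2 Vgll4 (0.9993), Pdha1 (0.9992) and Psmb3 (0.9992). The 6 points share the difference between the groups and the departure of control replicate 1.

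RefSeq (GRCm38.p6) gives 15 start sites for the 8 genes, 3 each for Srebf1 and Insig2, and the gene counts do not tell them apart. The windows from 250 bases before to 50 after a start were searched on both strands for the sterol regulatory element TCACNCCAC, the CCAAT box, the E-box CACGTG and the LXR element DR4. They occur in 1.24%, 37.4%, 7.15% and 0.0944% of 32851 windows of this length. The sterol element was found in 1 member window (Mlxipl), the CCAAT box in 6, the E-box in 4 (of which 2 are overlapping Scap windows that hold the same E-box) and DR4 in 0. Windows of the Insig genes, whose ratio did not overlap between the groups (exact permutation p = 0.1, not passing), are printed 5′ to 3′ with matches in capitals. Insig1 is at chr5:28071162-28071461, plus strand, with a CCAAT box on the reverse strand and an E-box. The start of Insig2 is at chr1:121332540-121332839, minus strand, with 3 CCAAT boxes, 1 of them reversed. The other Insig2 windows had none of these motifs.
Insig1 promoter: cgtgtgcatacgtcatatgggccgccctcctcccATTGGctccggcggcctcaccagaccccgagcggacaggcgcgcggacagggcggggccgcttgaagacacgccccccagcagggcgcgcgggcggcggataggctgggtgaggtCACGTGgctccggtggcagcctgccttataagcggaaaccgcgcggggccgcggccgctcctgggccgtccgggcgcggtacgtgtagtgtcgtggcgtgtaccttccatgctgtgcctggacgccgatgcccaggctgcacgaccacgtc
Insig2 promoter: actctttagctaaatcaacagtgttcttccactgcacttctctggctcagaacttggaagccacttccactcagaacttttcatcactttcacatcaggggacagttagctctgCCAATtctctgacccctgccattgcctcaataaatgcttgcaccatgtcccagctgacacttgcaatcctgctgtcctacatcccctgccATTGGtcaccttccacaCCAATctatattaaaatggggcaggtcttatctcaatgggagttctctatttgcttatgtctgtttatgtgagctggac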

How the data were processed

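The authors deposited raw counts per Ensembl gene for 6 libraries of sorted hepatocytes, whole numbers with no normalisation, per the file headers and the values. GRCm 38 and mm 10 are the builds in the submitters' processing notes. For the aligner, counter, annotation and strand setting, the record is "not given in the sources used here", and counts of overlapping or near-identical genes are uncertain. Nothing ties a replicate number to a mouse, so p-values measure the spread between these libraries. Replicates of a group differed by more than sampling noise (chi-square per gene 7.65 to 205).

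Genes passing filterByExpr (minimum count 10) were scaled by TMM. The test was the quasi-likelihood F test of edgeR 4.0.16 in R 4.3.3, with a robust fit on group alone, with Benjamini-Hochberg adjustment over all tested genes and a threshold of 0.05. The background correction subtracted counts per exonic kb over 1702 receptor genes (5503 kb, GENCODE M21) multiplied by the exonic kb of each gene, kept nuclear protein-coding genes averaging at least 10 times background, and repeated the fit. Ratios used a pseudocount of 0.5. As a check of the code, log2 changes of 2 and 3 were simulated among 16498 genes with a fixed dispersion and no background. They were recovered in 88% and 100% of cases, with 9 false calls. The spread between replicates and the background of these libraries were not simulated, so those shares do not measure power or error in these data. Alternatives were other scalings, DESeq2 1.42.0, no filter, a replicate block and each library left out. Python 3.11.15, scipy 1.17.1 and pandas 2.3.3 were also used. Intervals cover counting error only.

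The members, the partner and marker lists and the alternatives were chosen with earlier results of these data known. The rule named all members, the 3 genes of each partner or target list with the smallest p, the 3 marker genes of each cell type with the highest mean CPM, and for Nr1h3, Srebf1 and Srebf2 the 3 protein-coding genes (mean CPM of at least 5) most correlated with each. Tf, 1 of 20 hepatocyte markers listed, was not matched. A few genes that were tested are named nowhere in the text, since they are not reported here.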

Additional observations from a re-analysis of the deposited data

How the results depend on the processing

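All 8 regulators passed the edgeR test with each library left out, without the filter on low counts, with DESeq2 and with a replicate block, and 7 and 6 passed with upper-quartile factors and library size alone. Hepatocyte scaling called 2 of 8 lower, where 2.26% of all tested genes fell, and reversed Srebf2 (0.57), Scap (0.71) and Insig1 (0.78). Background subtraction called 2 of 8 members lower, Insig2 and, on counts at or under background, Nr1h2. It called 2505 genes of those fitted, where 20.3% fell and 18.5% rose, and reversed Scap (0.47) and Insig1 (0.64). The cause was not tested. After background correction, library size as the sole scaling called 4 members lower, where 26.6% of genes fell, and put Scap at -0.12. There 20.9% of calls rose, against 47.7%. With a library left out, 8472 to 19532 genes were called as deposited and 1382 to 2740 after correction. Those corrected fits called 1 to 3 of the members, Nr1h2 in each, where 11.4% to 22.3% of fitted genes fell. The Srebf1 to Mlxipl ratio, a difference of -0.06, ran from -0.40 to 0.15 and turned positive on omission of control replicate 1 (0.07) or of miR-206 replicate 2 (0.15) or 3 (0.07). The labels do not say that a replicate number marks a mouse, and same-numbered libraries deviated together by correlations of 0.008, 0.023 and -0.006. A replicate block called 12059 genes as deposited, and after correction called Nr1h3 (adjusted p = 0.0439) and no longer Insig2 (0.0508). Paired permutation of the ratios cannot go below 0.25. In the miR-206 libraries all 8 members lay at or under 11.1 times background, which limits the precision of their fold changes.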
